A study of Mus musculus with 6 samples.

Results

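The machinery that copies DNA was examined through 45 genes of origin licensing, the replication fork, nucleotide supply and S phase entry. They were given as a list of gene symbols by function, with no measured value in the rule, and all 45 were found among the 21938 genes of the deposited table. Earlier results of these data were known when the list was chosen. RNA had been sequenced from soft palate of mouse embryos at E14.0, in 3 control and 3 mutant libraries. Controls carried floxed alleles of β-catenin without Cre (b-cateninfl/fl), although another label field calls them wild type. Mutants (Osr2-Cre;b-cateninfl/fl) carried the same floxed alleles with Osr2-Cre, in which the Osr2 gene of palatal mesenchyme drives the recombinase, so that epithelium and other cells without Osr2 expression are not direct targets. Libraries are named by the replicate numbers of their labels, 1, 2 and 3 for controls and 5, 6 and 7 for mutants. The labels do not say whether a library held 1 embryo or several, so p-values measure only the spread between these libraries.

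Before S phase, the origin recognition complex with Cdc6 and Cdt1 loads the MCM ring, the core of the replicative helicase, onto DNA. At the G1/S transition, cyclin E with its kinase and the E2F transcription factors drive the step into S phase, Cdc45 and the GINS complex join the ring, and polymerases copy both strands around the sliding clamp PCNA. β-catenin is the transcriptional effector of canonical Wnt signalling, and D cyclin and Myc genes are among its textbook targets in many tissues. In the embryonic palate, proliferation of the mesenchyme accompanies the outgrowth of the shelves.

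No member passed the test at an adjusted p of 0.05 (limma over all genes, 0 of 45 members), and every member was read in all 6 libraries. Over the whole table, 105 genes passed, or 0.479%. At an unadjusted p under 0.05, 9 of 45 members lay lower in the mutants and 0 lay higher, where the whole table had 8.07% lower and 13.4% higher. The groups did not overlap, with every mutant library under every control, for 12 members, and with every mutant above for 0 members, where the table had 10.8% and 17.1%. Genes with a mean CPM at or above the lowest mean of a member are a closer background, and of these 12701 genes 11.8% lay lower and 11.4% higher at an unadjusted p under 0.05. The median log2 difference between mutant and control was -0.10 over the members, -0.02 over those 12701 genes and 0.04 over all genes, and 34 of 45 members had a negative value. The sign was the same in every alternative for 26 of the 45. Alternatives that changed only the filter, the variance model or a sex term left the log2 differences unchanged, so no sign could change there.

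The 9 members that lay lower at an unadjusted p under 0.05 were the helicase and fork genes Mcm5, Gins2, Pold1, Pcna, Rfc4 and Rpa1, the nucleotide supply gene Rrm2, and the G1/S genes Ccne1 and E2f1. Their number depended on single libraries: it was 5 without control 3, 4 without mutant 7, and 3 without mutant 5, where Pola1 and Chaf1a also lay higher at an unadjusted p under 0.05. Ccne1, Rrm2 and Pold1 stayed under 0.05 in all 14 alternatives that changed the scaling, filter, pseudocount, variance model, a sex term or the libraries used. Differences were small throughout: the 95% interval, not adjusted for the number of genes, lay within 1.5-fold in either direction for 36 members and within 2-fold for 44, with Pold1 the exception.

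**Figure D1:**
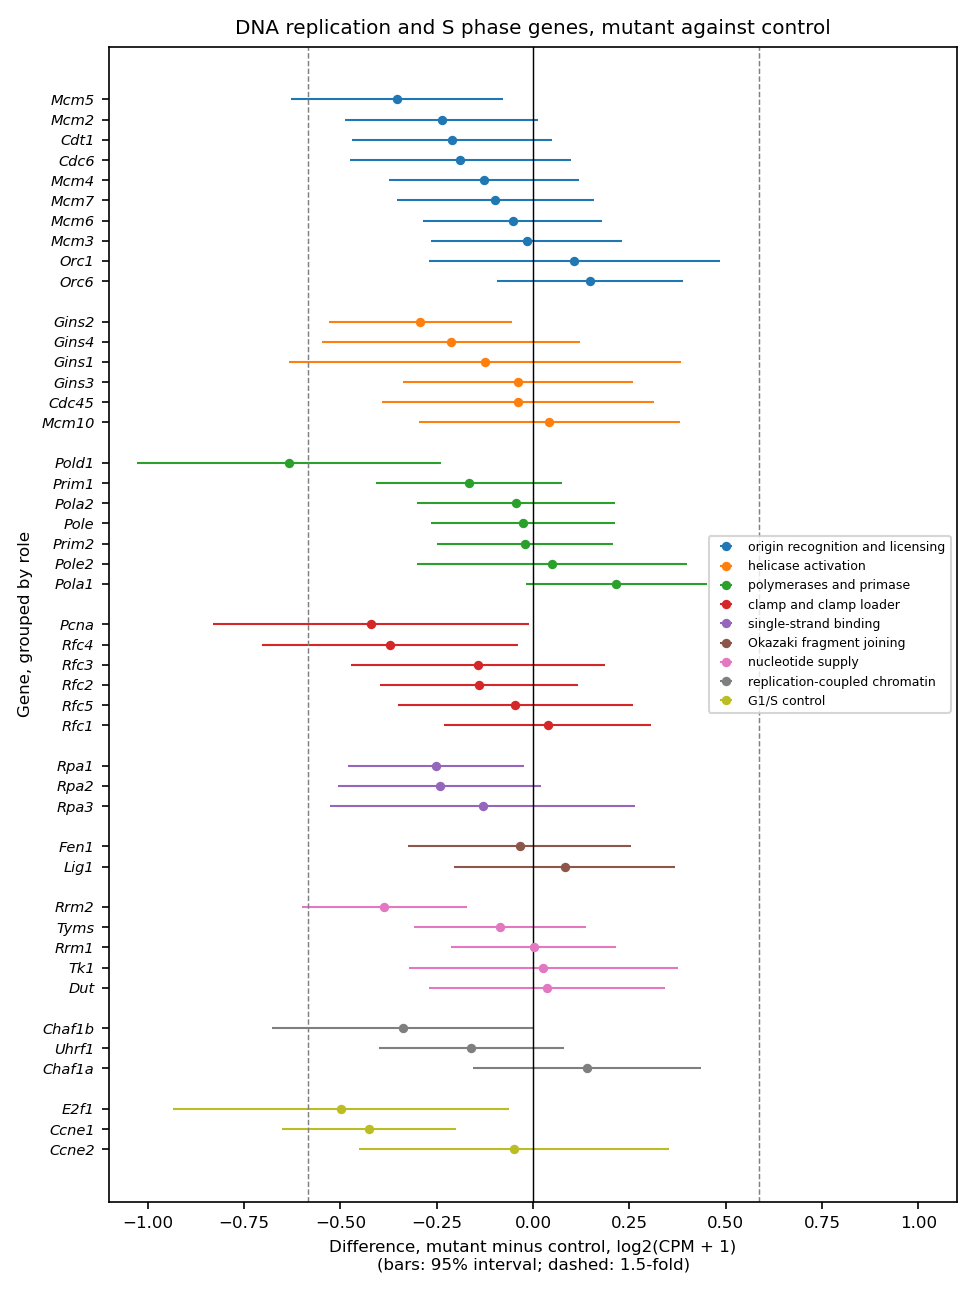
Difference between mutant and control on the log2(CPM + 1) scale for the 45 members, grouped by role, each point with its 95% interval from limma; dashed lines mark 1.5-fold. Pold1 lies lowest at -0.63 and Pola1 highest at 0.22, and most intervals span 0.

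Many replication genes are known as targets of the E2F transcription factors, and the promoters of 4 members are shown to place these letters beside the measured levels. RefSeq promoters (GRCm38.p6) matched 37 of the 45 members. The letters TTTCGCGC, TTTGGCGC or TTTCCCGC, common forms of the E2F motif, were searched on both strands in the 250 bases before each start, counting overlapping matches. Each sequence below is the 200 bases before the start, 5′ to 3′ on the gene's strand, with matching letters in capitals. Mcm5 (chr8:75109309-75109508, plus strand) is shown as the member with the motif that lay lower at an unadjusted p under 0.05. Mcm6 (chr1:128359706-128359905, minus strand) has the most matches, Pola1 (chrX:93632156-93632355, minus strand) lay highest of all members, and Ccne1 (chr7:38107491-38107690, minus strand) had the smallest p and no match in this window.
Mcm5: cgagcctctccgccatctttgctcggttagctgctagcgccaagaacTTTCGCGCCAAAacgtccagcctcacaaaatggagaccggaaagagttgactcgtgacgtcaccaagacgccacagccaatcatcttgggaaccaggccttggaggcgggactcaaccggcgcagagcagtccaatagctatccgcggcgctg
Mcm6: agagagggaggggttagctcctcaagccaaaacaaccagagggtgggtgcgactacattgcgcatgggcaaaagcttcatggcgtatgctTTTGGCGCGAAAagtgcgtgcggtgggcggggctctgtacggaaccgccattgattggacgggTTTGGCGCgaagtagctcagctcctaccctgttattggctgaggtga
Pola1: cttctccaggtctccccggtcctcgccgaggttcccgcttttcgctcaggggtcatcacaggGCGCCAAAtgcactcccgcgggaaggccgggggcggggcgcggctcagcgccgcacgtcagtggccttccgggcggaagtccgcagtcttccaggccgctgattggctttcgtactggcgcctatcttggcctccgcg
Ccne1: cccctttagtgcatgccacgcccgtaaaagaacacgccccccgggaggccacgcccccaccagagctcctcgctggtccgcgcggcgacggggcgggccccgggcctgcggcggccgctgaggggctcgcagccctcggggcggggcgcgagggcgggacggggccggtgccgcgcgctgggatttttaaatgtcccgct
In Mcm5 the capitals hold 2 overlapping matches on opposite strands, starting 153 bases before the start. Mcm6 holds 3 matches, a pair that overlap on opposite strands from 110 bases before the start and 1 at 47 bases, and Pola1 holds 1 on the opposite strand at 138 bases.

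A match was found for 9 of the 37 members (24.3%): Orc1, Cdc6, Mcm5, Mcm6, Mcm7, Gins3, Pola1, Rfc3 and Uhrf1. The share was 21.9% of 73 other replication genes, 7.14% of 42 mitosis and G2/M genes, and 3.04% of all 12979 genes of the table with a promoter sequence. Members with a match had a median log2 difference of -0.10 and 1 of 9, Mcm5, lay lower at an unadjusted p under 0.05. Members without one had a median of -0.07, with 7 of 28 under 0.05, all lower. A match describes letters in the window, and the absence of one says only that these letters are not there.

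Among the 10 licensing genes, 8 had a negative difference and Mcm5 had the smallest p. Mcm5, a subunit of the MCM2-7 ring (chromosome 8, 75109569 to 75128439, GRCm38), measured 75.3, 90.3 and 84.2 CPM in controls 1, 2 and 3 and 55.2, 71.9 and 68.6 CPM in mutants 5, 6 and 7. All 3 mutants lay under the lowest control, with mutant 5 the lowest. The mean was 83.3 ± 7.54 CPM in controls and 65.3 ± 8.83 CPM in mutants (SD, n = 3 each), a log2 difference of -0.35 ± 0.12 (SE, adjusted p 0.152 in limma).

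The ring is built from 6 different subunits in equal number. Mcm2 measured 114.0, 117.3 and 125.9 CPM in controls 1 to 3 against 86.3, 110.2 and 107.5 CPM in the mutants. Its groups were separate as well, with a log2 difference of -0.24 ± 0.11 (adjusted p 0.254 in limma). For the remaining subunits the groups overlapped. Mcm3 read 107.6, 104.9 and 111.5 CPM in controls and 91.2, 118.5 and 112.3 CPM in mutants, so that mutant 5 was the lowest and mutant 6 the highest of all libraries. Mcm4 read 135.2, 118.8 and 137.2 CPM against 106.1, 133.7 and 119.0 CPM, and only mutant 5 lay outside the range of the controls. Mcm6 read 162.3, 130.0 and 159.2 CPM against 143.8, 140.7 and 148.5 CPM, with all mutants inside the range of the controls. Mcm7 read 107.4, 108.7 and 125.8 CPM against 92.4, 111.0 and 116.6 CPM, and again mutant 5 alone lay below the controls. The log2 differences of these 4 were -0.02 for Mcm3, -0.13 for Mcm4, -0.05 for Mcm6 and -0.10 for Mcm7, with adjusted p between 0.532 and 0.945. Exons of Mcm7 overlap those of Cops6 and Ap4m1 on the opposite strand, and with a strand of counting not given in the sources used here its value may include reads of those genes.

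Of the genes that load the ring, Orc6, a subunit of the origin recognition complex, had the higher mean in mutants. It read 25.3, 23.8 and 27.6 CPM in controls and 27.0, 29.5 and 28.6 CPM in mutants. The groups overlapped at mutant 5 and control 3, and the log2 difference was 0.15 ± 0.11 (adjusted p 0.452 in limma). Its exons overlap those of Vps35 on the opposite strand. Orc1, the ATPase subunit of the same complex, differed by 0.11, and the loading factors Cdc6 and Cdt1 by -0.19 and -0.21. Cdt1 was among the 12 members with separate groups, at 24.6 to 26.7 CPM in controls and 19.6 to 23.4 CPM in mutants. Per kilobase of merged exon length, levels in controls ran from 1.93 CPM for Orc1 to 36.3 CPM for Mcm4, and the same pair bounded the mutants at 2.10 and 33.3 CPM, so the ring genes were read many times as often per base as Orc1 in both groups.

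Helicase activation was covered by Cdc45, Mcm10 and the 4 GINS subunits. Gins2 measured 46.1, 47.2 and 55.2 CPM in controls and 39.1, 42.7 and 38.7 CPM in mutants. No mutant reached the lowest control, and the log2 difference was -0.29 ± 0.10 (adjusted p 0.163 in limma). The other GINS genes had overlapping groups and differences of -0.21 for Gins4, -0.13 for Gins1 and -0.04 for Gins3. Cdc45, which binds the ring together with GINS, read 13.5, 14.4 and 14.4 CPM against 11, 14.7 and 15.8 CPM. Its mutants spanned a wider range than its controls on both sides, with a difference of -0.04 ± 0.16. Mcm10, a factor needed to start unwinding, differed by 0.04. Gins2 shares exonic sequence with Gse1, and Cdc45 with Ufd1, each on the opposite strand, so both values are uncertain to that extent.

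Among the polymerases, Pold1 had the largest difference of all members. It encodes the catalytic subunit of polymerase delta, which copies mainly the lagging strand (chromosome 7, 44532746 to 44548849, GRCm38). Pold1 read 32.2, 49.9 and 33.1 CPM in controls and 22.1, 27.1 and 22.9 CPM in mutants. All mutants lay below all controls, and control 2 stood well above the other 5 libraries. The means were 38.4 ± 9.97 and 24 ± 2.68 CPM (SD, n = 3 each), and the log2 difference was -0.63 ± 0.17 (SE), or 0.645-fold with a 95% interval of 0.490 to 0.848 (adjusted p 0.104 in limma). Across the 14 alternatives the difference ran from -0.74 to -0.43. Pold2, the accessory subunit of the same polymerase, is outside the 45 and was singled out after its values were seen; it read 17.3, 20.6 and 19.9 CPM in controls and 12.3, 14.2 and 15.3 CPM in mutants. Its groups were also separate, with a log2 difference of -0.44 ± 0.13 (adjusted p 0.125 in limma).

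Pola1 lay at the other end of the list. This catalytic subunit of polymerase alpha, which extends the primers that start each fragment, read 85.2, 74.5 and 76.2 CPM in controls and 81.2, 95.2 and 98.5 CPM in mutants. Mutants 6 and 7 were above every control and mutant 5 was not, giving a log2 difference of 0.22 ± 0.10 (adjusted p 0.268 in limma). Prim2, the large primase subunit, read 26.7, 28.5 and 29.2 CPM in controls and 27.2, 29.2 and 26.8 CPM in mutants. These 2 groups spanned nearly the same range, and the 95% interval of the log2 difference was -0.25 to 0.21. Prim1, the catalytic primase subunit, had separate groups at 30.3 to 33.2 CPM and 25.5 to 29.7 CPM with a difference of -0.17, whereas Pola2, Pole and Pole2 differed by -0.04, -0.03 and 0.05. Exons of Pole2 overlap those of Gm49384 on the same strand, so its value is uncertain whatever the strand of counting. Pole, the catalytic subunit of the leading-strand polymerase epsilon, was at 59.2 ± 0.492 CPM in controls and 58.4 ± 7.18 CPM in mutants (SD, n = 3 each). That the differences of Pold1 and Pole were unlike each other was not tested.

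**Figure D2:**
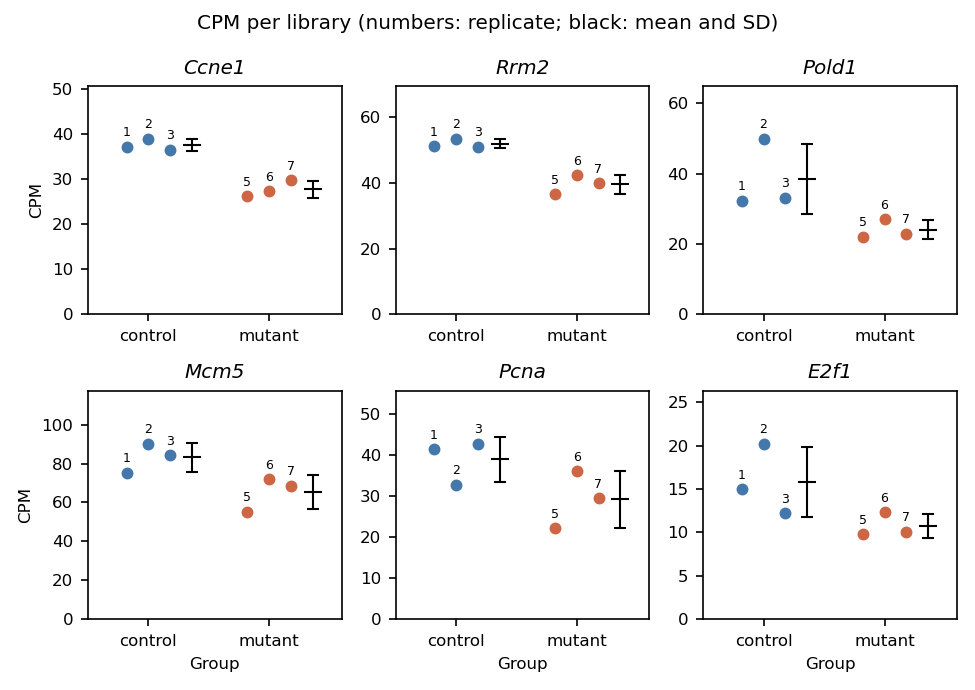
CPM in each library for 6 members, with the replicate number at each point and the group mean and SD in black; each vertical axis starts at 0. Ccne1, Rrm2, Pold1 and Mcm5 have separate groups, while Pcna and E2f1 overlap through control 2 or control 3 and mutant 6.

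The sliding clamp and its loader held 6 members, of which 2 lay lower at an unadjusted p under 0.05. Pcna, the clamp that tethers polymerases to DNA, read 41.5, 32.8 and 42.9 CPM in controls and 22.1, 36.1 and 29.5 CPM in mutants. Mutant 6 exceeded control 2, so the groups overlapped, and the log2 difference was -0.42 ± 0.18 (adjusted p 0.223 in limma). Pcna-ps2, a copy of the gene that the table lists separately, may have taken some of its reads. Rfc4, a small subunit of the clamp loader, read 18.5, 19.99 and 24.1 CPM in controls and 13.7, 17.4 and 16.5 CPM in mutants. Its groups were separate, with a difference of -0.37 ± 0.15 (adjusted p 0.193 in limma), and its exons overlap those of Eif4a2 on the opposite strand. Rfc1, the large subunit, read 132.8, 108.4 and 121.9 CPM against 111.5, 143.1 and 119.1 CPM, with overlapping groups and a difference of 0.04 ± 0.12. Rfc2, Rfc3 and Rfc5 differed by -0.14, -0.14 and -0.05, all with overlapping groups. Rfc2 and Rfc5 share exonic sequence with Lat2 and Wsb2 on the opposite strand, as Pole and Orc1 do with non-coding genes.

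All 3 genes of replication protein A, the trimer that coats single-stranded DNA, had a negative difference. Rpa1, its large subunit, read 79.9, 79.6 and 83.9 CPM in controls and 60.0, 74.1 and 70.7 CPM in mutants. The controls lay close together and all mutants lay under them, with a log2 difference of -0.25 ± 0.10 (adjusted p 0.199 in limma). Rpa2 was separate too, at 24.7 to 25.5 CPM against 19.1 to 23.8 CPM with a difference of -0.24. Rpa3, the small subunit, read 6.36, 5.80 and 7.89 CPM against 6.62, 5.82 and 5.52 CPM. Its groups overlapped and its 95% interval was wide, at -0.53 to 0.26 on the log2 scale.

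Joining of Okazaki fragments was represented by Lig1 and Fen1. Lig1, the ligase that seals the fragments, read 130.6, 111.6 and 140.6 CPM in controls and 115.8, 138.1 and 152.2 CPM in mutants. Fen1, the nuclease that trims their ends, read 41.6, 36.4 and 40.4 CPM against 33.0, 44.96 and 38.3 CPM. Groups overlapped for both, with differences of 0.08 ± 0.13 and -0.03 ± 0.13. Both genes share exonic sequence with genes of the opposite strand, Lig1 with Zswim9 and Fen1 with Tmem258.

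Nucleotide supply showed a split between the subunits of ribonucleotide reductase, the enzyme that makes deoxynucleotides. Rrm2, the small subunit whose level varies with the cell cycle (chromosome 12, 24708241 to 24714146, GRCm38), read 51.2, 53.4 and 51.0 CPM in controls and 36.5, 42.2 and 39.8 CPM in mutants. The gap between the groups was wider than the range within either group. The means were 51.9 ± 1.37 and 39.5 ± 2.90 CPM (SD, n = 3 each), with a log2 difference of -0.39 ± 0.09 (SE), or 0.765-fold with a 95% interval of 0.659 to 0.888 (adjusted p 0.0854 in limma). Rrm1, the large subunit, read 151.3, 149.6 and 170.1 CPM in controls and 143.7, 164.2 and 163.8 CPM in mutants. Its groups overlapped, and its log2 difference of 0.0013 had a 95% interval of 0.863-fold to 1.16-fold. Within each library the log2 ratio of Rrm2 to Rrm1 CPM was -1.56, -1.49 and -1.74 in the controls and -1.98, -1.96 and -2.04 in the mutants, so this ratio was lower in every mutant. Dut, Tk1 and Tyms, enzymes of thymidine nucleotide supply, had overlapping groups and differences of 0.04, 0.03 and -0.09. Tk1 shares exonic sequence with Afmid on the opposite strand, and a copy of Tyms, Tyms-ps, is listed separately.

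A similar split was seen in chromatin assembly factor 1, which deposits histones behind the fork. Chaf1b, its middle subunit, read 17.1, 20.3 and 20.9 CPM in controls and 12.6, 17.2 and 15.8 CPM in mutants. Mutant 6 just exceeded control 1, so the groups overlapped narrowly, with a log2 difference of -0.34 ± 0.15 (adjusted p 0.235 in limma). Chaf1a, the large subunit, read 83.3, 85.5 and 94.9 CPM against 80.9, 97.3 and 115.0 CPM, with the lowest and the highest of the 6 libraries both among the mutants and a difference of 0.14 ± 0.13. The log2 ratio of Chaf1b to Chaf1a was -2.28, -2.08 and -2.19 in controls and -2.68, -2.50 and -2.86 in mutants, lower in every mutant. Exons of Chaf1a overlap those of Ubxn6 on the opposite strand. These subunit ratios, and that of cyclin E given with the G1/S genes, were chosen after the values were seen and are given without a test. Uhrf1, which carries maintenance DNA methylation to the fork, had separate groups at 129.0 to 136.8 CPM and 102.7 to 128.8 CPM, with a difference of -0.16.

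The G1/S genes had the lowest summed level relative to controls of the 9 roles: Ccne1, Ccne2 and E2f1 together read 77.5, 77.7 and 80.2 CPM in controls and 60.6, 63.5 and 62.4 CPM in mutants. Ccne1, which encodes cyclin E1 (chromosome 7, 38097984 to 38107534, GRCm38), read 37.2, 38.9 and 36.4 CPM in controls and 26.2, 27.2 and 29.8 CPM in mutants. The groups were far apart relative to their ranges. Its means were 37.5 ± 1.28 and 27.7 ± 1.85 CPM (SD, n = 3 each), a log2 difference of -0.43 ± 0.10 (SE), or 0.745-fold with a 95% interval of 0.637 to 0.871. The adjusted p of 0.0781 in limma was the smallest of the 45, and it ran from 0.0644 to 0.246 over the alternatives. Ccne2, the second cyclin E gene, read 25.4, 18.5 and 31.5 CPM against 24.7, 23.97 and 22.6 CPM, with all mutants inside the wide range of the controls and a difference of -0.05 ± 0.18. The log2 ratio of Ccne1 to Ccne2 was 0.55, 1.07 and 0.21 in controls and 0.08, 0.18 and 0.40 in mutants, which overlap. Exons of Ccne2 overlap those of Ints8 on the opposite strand. E2f1, a transcription factor of the G1/S switch, read 14.96, 20.3 and 12.2 CPM in controls and 9.78, 12.3 and 10.1 CPM in mutants. Mutant 6 and control 3 were nearly level, control 2 was the highest, and the log2 difference was -0.50 ± 0.19 (adjusted p 0.186 in limma).

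One library weighed on the whole set. Mutant 5 was the lowest of the 6 libraries for 32 of 45 members, control 2 for 7, control 1 for 4 and mutant 7 for 2. Relative to the mean of the controls, the median member stood at -0.05, -0.02 and 0.07 (log2) in controls 1, 2 and 3 and at -0.26, -0.03 and -0.05 in mutants 5, 6 and 7. Mutants 6 and 7 thus lay within the range of the controls by this measure and mutant 5 stood apart. Among the 12701 genes at or above the lowest mean of a member, mutant 5 was the lowest library for 2492. Its median over those genes stood at -0.03. Without mutant 5 the median difference of the members was -0.04, and without control 3, the highest of the controls, it was -0.04 as well. The summed level of all members was 2362, 2346 and 2520 CPM in controls and 2006, 2401 and 2377 CPM in mutants, so the groups overlapped.

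**Figure D3:**
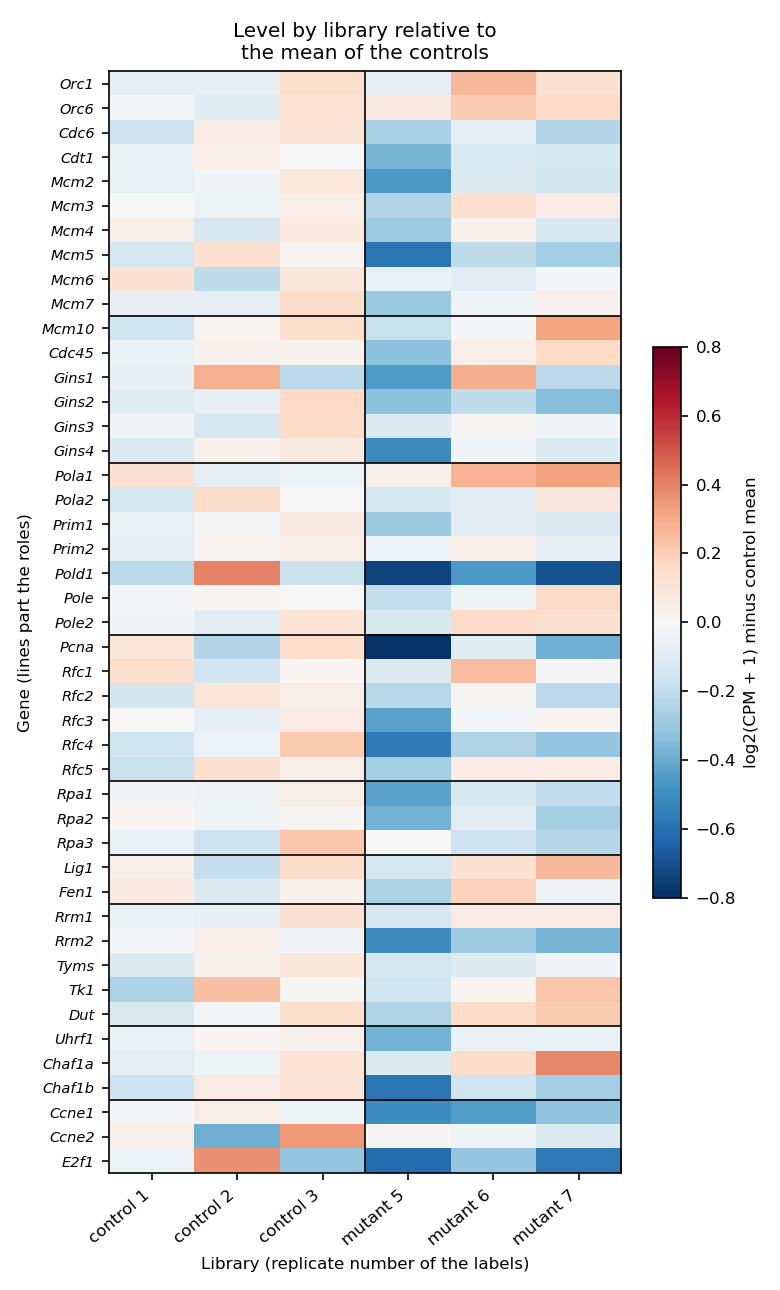
Level of each member in each library, as log2(CPM + 1) minus the mean of the controls (blue lower, red higher), with lines between the 9 roles and between the groups. The column of mutant 5 is blue for most genes, while Ccne1, Rrm2 and Pold1 are among the genes that are blue in all 3 mutants.

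The rest of the pathway was read from 96 further replication genes in 6 lists. None passed the test in limma. At an unadjusted p under 0.05, 5 lay higher (5.21%) and 9 lower (9.38%), and the median log2 difference of the 96 was 0.03. Without control 3 these 14 became 9. Of the 12701 genes at or above the lowest mean of a member, 11.4% lay higher and 11.8% lower. Of the licensing and firing list of 16 genes, Rif1, which controls the timing of origin firing, read 224.4, 210.3 and 199.5 CPM in controls and 262.6, 288.6 and 340.4 CPM in mutants. Every mutant exceeded every control, with a log2 difference of 0.48 ± 0.11 (adjusted p 0.0771 in limma). Atr, the kinase of the replication stress checkpoint, was the second of the higher genes at 61.5 to 77.8 CPM against 90.2 to 98.7 CPM, a difference of 0.40 ± 0.11 (adjusted p 0.104 in limma). Among the lower genes, Skp2, a ubiquitin ligase subunit that targets inhibitors of cyclin E kinase, read 72.8 to 76.1 CPM against 55.9 to 61.3 CPM, a difference of -0.34 ± 0.08 (adjusted p 0.0855 in limma). Ctps, a synthase of cytidine nucleotides, had means of 61.5 ± 5.75 and 46.7 ± 2.97 CPM (SD, n = 3 each), with separate groups and a difference of -0.39 ± 0.10 (adjusted p 0.0994 in limma). The other nucleotide supply genes were the list with the lowest median, at -0.18, with 3 of 13 lower at an unadjusted p under 0.05 and 0 higher.

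Genes of mitosis and G2/M, which act after S phase, gave a comparison within the cell cycle. Of 50 such genes 1 passed the test, and 1 lay higher and 2 lower at an unadjusted p under 0.05, with a median of -0.02. These are 2.0% higher and 4.0% lower, where genes at or above the lowest mean of a member had 11.4% and 11.8%. Ube2c, a ubiquitin-conjugating enzyme that works with the anaphase-promoting complex, fell from 75.5, 68.5 and 74.8 CPM in controls to 32.4, 45.8 and 44.4 CPM in mutants, a log2 difference of -0.83 ± 0.14 (adjusted p 0.0448 in limma). That call was lost in each alternative in which no gene of the table passed, among them the fits without control 1, control 3, mutant 5 or mutant 6. Plk1, a mitotic kinase, was the next lower at 32.1 to 34.8 CPM against 21.9 to 31.2 CPM (adjusted p 0.205 in limma), and the higher genes with the smallest p were Ect2 and Cenpf at 0.25 each (adjusted p 0.233 and 0.281 in limma). Mutant 5 was the lowest library for 35 of these 50 genes as well, where its median stood at -0.22, while mutant 7 was at 0.13. Without mutant 5 or without mutant 7, 6 of the 50 lay under an unadjusted p of 0.05, of which 5 were higher in the former case and 0 in the latter, and without control 2 or mutant 6 only 1 did.

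**Figure D4:**
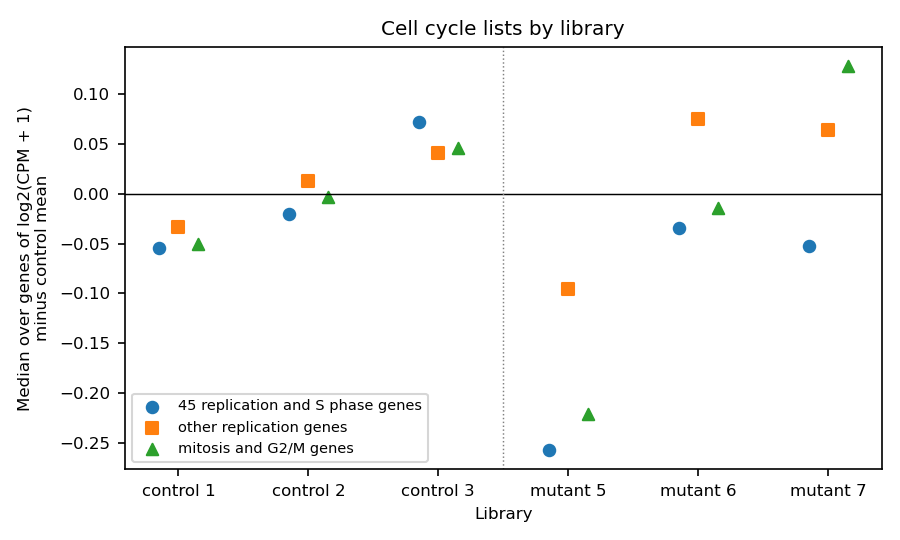
Median over genes of log2(CPM + 1) minus the control mean, per library, for the 45 members, the 96 other replication genes and the 50 mitosis and G2/M genes. Mutant 5 is the lowest library for all 3 lists, and mutants 6 and 7 lie above the controls for the other replication genes.

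Upstream of cyclin E, 5 of the 8 D cyclin, Myc and Cdk4/6 genes lay lower at an unadjusted p under 0.05 and none passed the adjusted threshold in limma. Among genes at or above the lowest mean of a member, 11.8% lay lower at that unadjusted threshold. Ccnd3 and Ccnd1, D cyclins that start the G1/S switch, differed by -0.39 ± 0.10 and -0.41 ± 0.13 (adjusted p 0.0934 and 0.141 in limma). Their partner Cdk4 differed by -0.35 ± 0.10, and the growth regulators Myc and Mycn by -0.34 ± 0.10 and -0.39 ± 0.17. Ccnd3, Cdk4, Myc and Ccnd1 had separate groups. Ccnd2, the remaining D cyclin, read 687.4, 606.4 and 753.8 CPM in controls and 649.0, 812.7 and 638.9 CPM in mutants, a difference of 0.03 with overlap. Cdk6 and Mycl differed by 0.20 and 0.19. All 7 inhibitors of cyclin-dependent kinases had negative differences, from -0.10 for Cdkn2c to -0.94 for Cdkn2b, and 3 of them, Cdkn2b, Cdkn2d and Cdkn1b, lay lower at an unadjusted p under 0.05. Cdkn1a, Cdkn2a and Cdkn1c differed by -0.14, -0.35 and -0.39.

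Exon length moved with the differences. Across the 45 members Spearman's rho between merged exon length and log2 difference was 0.28, across 95 other replication genes 0.47, across 50 mitosis and G2/M genes 0.49, and across 12454 genes of at least the members' lowest level 0.25. These are correlations across genes of the same 6 libraries, given as a description. The 9 members that lay lower at an unadjusted p under 0.05 had a median exon length of 3154 bases (1533 to 5578), and the other 36 had a median of 4263 bases. Rrm2 and Ccne1 have 2771 and 2662 bases, and Rrm1 and Ccne2, the genes set against them in the ratios, have 11012 and 3495. Chaf1b, set against Chaf1a, has 4681 bases. Of the 3 members with the highest differences, Pola1 and Chaf1a have 8813 and 8854 bases and Orc6 has 2469. Among the other replication genes Rif1, which lay higher, has 10504 bases, but Skp2 and Cad, which lay lower at an unadjusted p under 0.05, have 7875 and 8183 (Cad was chosen after its values were seen). The part of length in these differences was not tested.

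**Figure D5:**
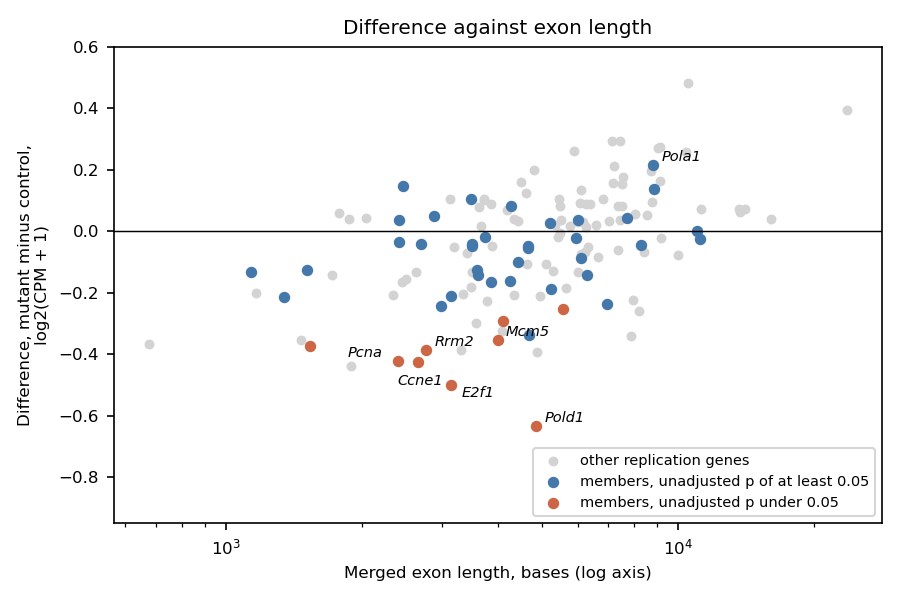
Log2 difference between mutant and control against merged exon length (log axis) for the 45 members, coloured by unadjusted p, and for the other replication genes in grey. Members at an unadjusted p under 0.05 run from 1533 to 5578 bases, and Pola1, with the highest difference of the members, has 8813 bases.

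Markers of the cell types in the tissue were read beside these genes. Ctnnb1, the targeted gene, read 698.5, 784.5 and 671.4 CPM across controls 1 to 3 and 584.6, 633.4 and 581.5 CPM across mutants 5 to 7, a log2 difference of -0.26 ± 0.10 (adjusted p 0.183 in limma); values cover the whole gene, with the floxed exons not given in the sources used here. Osr2 itself, the gene that drives Cre, was the only called marker of 12 for palatal mesenchyme, and it fell by 1.47 on the log2 scale (adjusted p 0.0285 in limma). Only the mutants carry Osr2-Cre, so an effect of Osr2-Cre itself on Osr2 cannot be told apart from one of β-catenin. All 12 mesenchyme markers, Osr2 among them, were read in every library, and 10 had a negative difference, with a median of -0.18 on the log2 scale. At an unadjusted p under 0.05 in limma, 2 lay lower and 0 higher, where the whole table had 8.07% lower and 13.4% higher. Summed, they read 1099 to 1275 CPM in controls and 911 to 1099 CPM in mutants, with a narrow overlap of the groups. Skeletal muscle markers lay lower at an unadjusted p under 0.05 in 16 of 16 genes, of which 8 passed the test, with a summed level of 7312 to 15417 CPM in controls and 4876 to 6036 CPM in mutants. Erythroid markers lay lower in 9 of 11 at an unadjusted p under 0.05, summing to 1707 to 4887 CPM against 863 to 1468 CPM, and multiciliated cell markers lay higher in 7 of 9, summing to 82.8 to 269 CPM against 281 to 384 CPM. The calls of Osr2 and of the 8 muscle genes were lost in the fits without control 1, control 3, mutant 5 or mutant 6. They were also lost without the variance trend or with a sex term, and no gene of the table passed in any of these fits. Without mutant 7 only 2 genes of the table passed, so at most 2 of these calls could remain. No erythroid or multiciliated marker and no gene of the remaining lists passed the test. At an unadjusted p under 0.05, 3 of 10 chondrocyte, 3 of 9 osteoblast and 2 of 12 epithelial markers lay higher and none lower, and 1 of 10 neuronal and 1 of 12 macrophage markers lay lower and none higher. Of 10 endothelial and 8 Schwann cell and glia markers 0 lay under that threshold in either direction. Summed levels overlapped between the groups for chondrocyte (352 to 793 CPM in controls, 550 to 855 CPM in mutants), osteoblast (2619 to 3708 and 2550 to 4476 CPM), epithelial (1371 to 2169 and 1848 to 2659 CPM), neuronal (565 to 1020 and 214 to 875 CPM), endothelial (224 to 355 and 262 to 362 CPM) and glial markers (157 to 174 and 126 to 171 CPM), and for macrophage markers (111 to 127 and 88.5 to 113 CPM). No gene of any of these lists was at 0 in a library (Dnai1, Hbb-bh1, Klf1, Ahsp and Bglap were not analysed here), and their part in the differences of the replication genes was not tested. In bulk tissue, fewer dividing cells and less RNA per cell cannot be told apart. Counted reads per library were estimated at 10018625 to 15089310, at which 3 reads equal 0.199 to 0.299 CPM, well under 6.33 CPM, the lowest mean of a member, that of Rpa3.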

How the data were processed

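The submitters' processing notes name STAR as a tool and mm10 as the build for the 6 soft palate libraries; a version, a counter, its strand and its annotation were not given in the sources used here. The deposited table holds CPM, counts per gene scaled by the authors to 1000000 per library, with a constant of 0.0001 in each value, read from the values. Each row is 1 library, identified by its sample name, and 0 rows were left unused. A shorter table of the same values was not used.

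CPM were taken as log2(CPM + 1), which understates the change of low genes, and the groups were compared with limma 3.58.1 (R 4.3.3), using an intensity trend, no filter on low values and no covariate, Benjamini-Hochberg adjusted over 21938 genes, threshold 0.05. The procedure was tested on simulated data. No count model was fitted: depth came from the step between low values, of which 63.6 to 68.2% were whole reads within 0.02, and read-based limits cover counting error only. Positions, lengths (merged over isoforms) and overlaps came from GENCODE vM21 (GRCm38), matched by symbol for 97.4% of genes.

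The members and all lists were chosen with earlier results of these data known. Values per library are given for the smallest and largest p of each role, the 3 largest differences in each direction, the MCM2-7 ring and genes singled out in the text; of other replication and of mitotic genes, for those called or with the 2 smallest p in each direction. Chtf8 had no length. Alternatives changed the pseudocount (0.1), a filter (mean CPM of at least 1 or 10), the scaling, the variance prior, a sex term read from Xist, the threshold (0.1) and the libraries.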

Additional observations from a re-analysis of the deposited data

How the results depend on the processing

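The count of 0 members called at an adjusted p of 0.05 held in all 14 alternatives. In those without the trend, with the sex term, or without control 1, control 3, mutant 5 or mutant 6, no gene passed. There the count of members could only be 0. Without mutant 7 only 2 genes of the table passed. At 0.1 there were 2 members, Ccne1 and Rrm2, with 999 genes of the whole table. The 105 calls over all genes (43 higher, 62 lower) became 66 higher and 61 lower with upper quartile scaling, 174 with a robust variance prior, 0 without the trend, 0 with the sex term, and 0 to 452 with 1 library left out. With 1 library left out, members at an unadjusted p under 0.05 numbered 4 to 12 (9 with all), other replication genes 9 to 16 (14 with all) and mitosis and G2/M genes 1 to 6 (3 with all); the last were 1 without the trend and 5 with the sex term. The median difference of members ran from -0.14 to -0.04. The 9 lower members stayed negative throughout. Among all 45 members 26 had the same sign in every alternative. The filters, the variance priors and the sex term cannot change a log2 difference, so signs there were fixed in advance. For Orc1, Gins1, Pole2 and Rpa3 only 13 alternatives exist. Of the named members, small differences changed sign: Mcm3 was 0.0029 with median scaling and 0.014 with upper quartile scaling, and Prim2 was 0.0090 with the latter. With 1 library left out, log2 differences ran from -0.15 to 0.0042 for Mcm6, -0.14 to 0.073 for Fen1, -0.032 to 0.065 for Rrm1, -0.066 to 0.11 for Rfc1, -0.010 to 0.19 for Lig1, -0.092 to 0.095 for Mcm3, -0.057 to 0.0047 for Prim2, -0.24 to 0.12 for Ccne2, -0.17 to 0.0011 for Mcm7 and -0.14 to 0.11 for Cdc45. The cause of these shifts was not tested. With 1 library left out a group holds 2, and limma pools the spread. No paired analysis was possible because the groups share no replicate number. Depth limits the low genes Rpa3, Orc1, Pole2 and Gins1 the most.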
